A study of Mus musculus with 6 samples.

Results

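Transcript levels of 36 genes of the vessel wall were followed in back skin of mouse embryos with and without Get1. The 36 are every gene of a list of blood endothelial, lymphatic and mural genes with their main ligands and receptors, and each is represented by its brightest probe set, the one with the highest mean log2 value over all arrays. They are 36 of 18193 genes with a probe set that names 1 gene, and 34 of them lay above the filter on low signal used for testing. Get1, which the labels spell out as grainyhead epithelial transactivator 1, is now called Grhl3. Total RNA came from 3 Get1 +/+ and 3 Get1 -/- mice, from the same region of the back, with 1 array per mouse. The sample labels give embryonic day 18, and the series' design text a slightly later point of the same day. Strain, sex, litter and the part of Get1 that was removed are not given in the sources used here, and no other allele or agent is named for either group. Values are signals in arbitrary units, scaled to a common mean on each array. Where 3 values are listed for a genotype they are those of replicates 1, 2 and 3 in that order, errors of signals are SD (n = 3 per genotype), and errors of log2 differences (Get1 -/- minus Get1 +/+) are standard errors of the model.

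Vessels of the dermis are tubes of endothelial cells wrapped by mural cells, the pericytes and smooth muscle cells. Vascular endothelial growth factor A acts on endothelium through the receptors Kdr and Flt1, angiopoietins act through Tek, and lymphatic endothelium, which drains fluid from the dermis, depends on the transcription factor Prox1 and on Flt4, the receptor for Vegfc. Grhl3 is known as a transcription factor of surface epithelia, where it binds the grainyhead site, and the epidermis has no vessels of its own.

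The 250 bases before the annotated start are shown for 4 members, because the results below turn on them: Rgs5 and Pdpn have the smallest p among the higher and the lower members tested, Robo4 is the only blood endothelial member whose genotypes did not overlap, and Tie1 stands beside it as an endothelial gene with a small difference. Sequences and coordinates are those of RefSeq (build GRCm38.p6), written 5′ to 3′ on the strand of the gene, and capitals mark AGGAAG on either strand, a form of the core bound by ETS factors such as the members Erg and Fli1.
Rgs5 (chr1:169655251-169655500, plus strand): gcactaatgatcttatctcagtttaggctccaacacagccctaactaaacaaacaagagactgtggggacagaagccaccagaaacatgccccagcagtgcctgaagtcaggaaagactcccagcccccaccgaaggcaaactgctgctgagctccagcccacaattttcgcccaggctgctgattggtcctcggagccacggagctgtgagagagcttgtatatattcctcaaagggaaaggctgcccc
Pdpn (chr4:143299565-143299814, minus strand): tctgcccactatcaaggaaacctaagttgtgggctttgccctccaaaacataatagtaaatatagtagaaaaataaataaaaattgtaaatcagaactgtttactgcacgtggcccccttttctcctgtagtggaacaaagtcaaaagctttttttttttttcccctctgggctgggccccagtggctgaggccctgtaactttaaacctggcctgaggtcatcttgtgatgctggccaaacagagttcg
Robo4 (chr9:37401722-37401971, plus strand): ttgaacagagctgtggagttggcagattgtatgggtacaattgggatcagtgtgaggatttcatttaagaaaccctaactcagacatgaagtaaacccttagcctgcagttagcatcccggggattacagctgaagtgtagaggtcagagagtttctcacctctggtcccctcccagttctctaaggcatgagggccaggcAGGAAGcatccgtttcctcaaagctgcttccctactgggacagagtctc
Tie1 (chr4:118489850-118490099, minus strand): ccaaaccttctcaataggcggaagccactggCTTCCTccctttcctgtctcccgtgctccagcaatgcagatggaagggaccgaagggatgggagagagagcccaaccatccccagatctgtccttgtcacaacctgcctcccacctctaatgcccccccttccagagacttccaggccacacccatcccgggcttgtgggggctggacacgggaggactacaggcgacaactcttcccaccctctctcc
The Robo4 window holds 1 match and the Tie1 window 1, on the opposite strand. The Rgs5 and Pdpn windows hold 0. Promoter entries were found for 19 of the 36 members, in 26 windows of this length. AGGAAG occurs in 10 of these windows (38.5%) and in 29.5% of all 32851 windows. The grainyhead site AACCGGTT occurs in 0 member windows and 0.116% of all windows, and its looser form AACNGGTT, which includes it, in 0 and 1.79%, both strands searched. These are matches of letters in short windows and describe neither binding nor its absence.

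The only probe set of Grhl3 read 478, 934 and 670.1 in Get1 +/+ and 246, 413 and 379.7 in Get1 -/- skin, a log2 difference of -0.98 ± 0.28 (adjusted p = 0.497), and it checks the genotype only if it lies in the part that was removed. Arrays correlated at 0.94 to 0.962 within a genotype and at 0.916 to 0.971 between genotypes. A pair of arrays stood apart in genes that skin is not known for. Sftpc, a surfactant protein of lung epithelium, read 64, 3594 and 6113 in Get1 +/+ and 854, 65 and 69.8 in Get1 -/- skin, and Scgb1a1, a secretory protein of the airways, read 109, 745 and 775 in Get1 +/+ and 76.4, 72.7 and 71.5 in Get1 -/- skin. Of 10 lung epithelial genes, a list chosen after Sftpc was seen, 7 were highest on Get1 +/+ replicates 2 and 3, as were 12.6% of all genes and 0 of the 36 members. Lung tissue holds many vessels, so values without these arrays are given below. Over the vessel genes tested, the mean log2 deviation from each gene's mean over all arrays was -0.20 and -0.13 on these arrays. It was higher on every other array, among them Get1 -/- replicate 1, where Sftpc read 854. The part of lung RNA in these deviations was not tested. The beta-actin control probe set also split the arrays, at 18407 to 19858 on Get1 +/+ replicates 1 and 2 and Get1 -/- replicate 1 and 10118 to 13059.6 on the others. Values below for arrays with a high actin control thus rest on Get1 -/- replicate 1 alone for that genotype. Those for the others rest on Get1 +/+ replicate 3 alone for its genotype.

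None of the 34 vessel genes tested passed an adjusted p under 0.05 in limma's fit of 11387 genes, against 0.0439% of all genes in either direction, 0.0263% higher and 0.0176% lower. Their adjusted p ran from 0.586 for Pdpn, lower in Get1 -/- skin, to 0.999 for Lyve1. At an unadjusted p under 0.05 there were 2 members, Rgs5 among the higher and Pdpn among the lower, against 3.89% and 4.29% of all genes, or 8.18% together. Genotypes did not overlap for 0 members in the higher direction and for 3 in the lower, Pdpn, Robo4 and Angpt2, where 5.2% and 6.78% of all genes did so. The 95% interval of the difference lay within a 2-fold change in either direction for 30 of 34 members, as it did for 9818 of all genes tested. The exceptions were Calcrl, Tal1 and Rgs5, whose intervals reached beyond 2-fold higher, and Pdpn, whose interval reached beyond 2-fold lower. For 13 members the interval lay within 1.5-fold. In whole skin fewer cells of a type and less RNA per cell cannot be told apart.

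**Figure D1:**
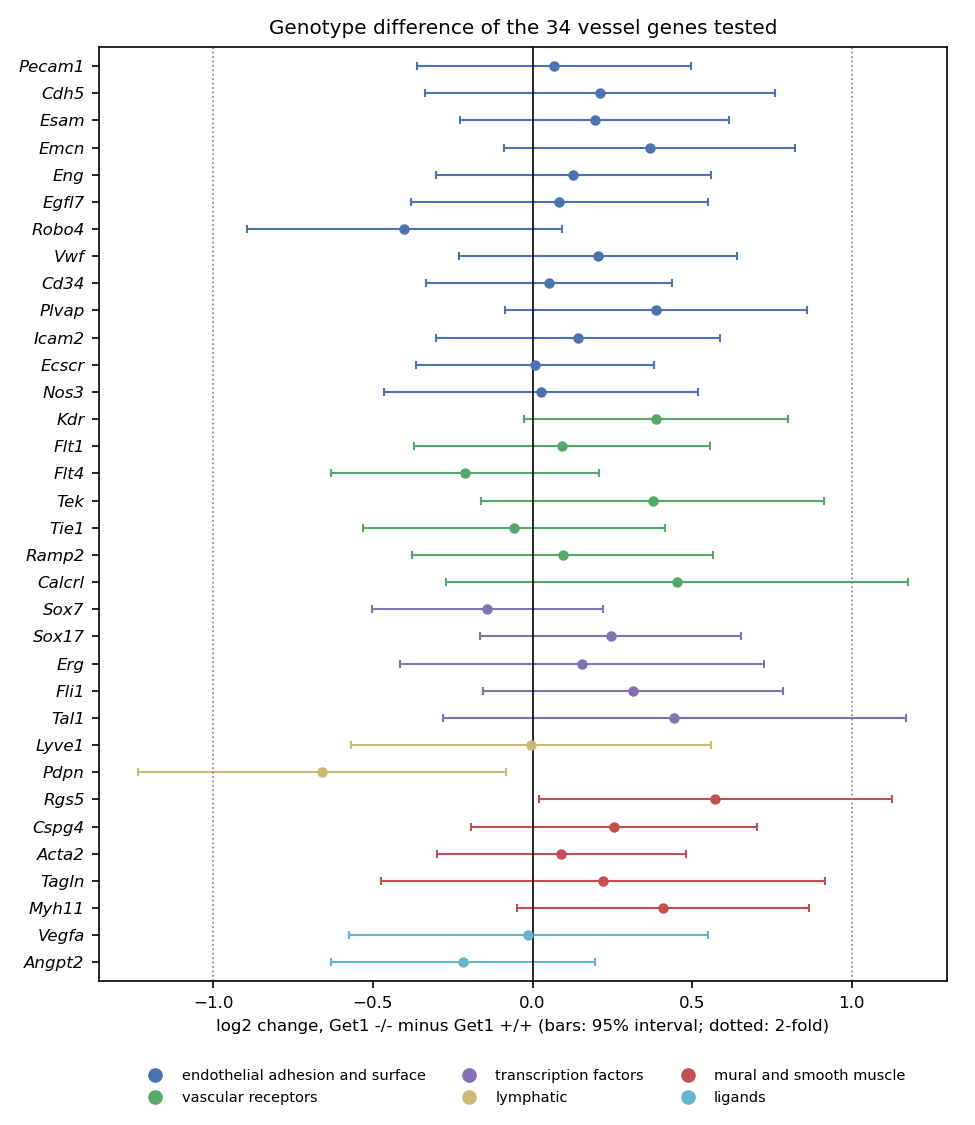
Log2 difference between Get1 -/- and Get1 +/+ skin for each of the 34 vessel genes tested (points, coloured by role) with its 95% interval (bars), a dotted line marking a 2-fold change. The intervals of Pdpn, below 0, and Rgs5, above 0, are the ones that leave out 0, and neither gene passed after adjustment over all genes.

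Differences of the members were small and mostly of one sign. 26 of 34 were higher in Get1 -/- skin, with a median log2 difference of 0.14, where 51.3% of all genes were higher and their median was 0.00761. In the 25 blood endothelial members the median was 0.14, with 21 higher. This set includes the receptor Flt4 (-0.21), which is described with the lymphatic genes below. This tilt was not present without Get1 +/+ replicates 2 and 3, the arrays on which lung genes were high. Replicate 1, which remains, is the Get1 +/+ array with the highest members, at a mean log2 deviation of 0.14, against -0.20 and -0.13. A smaller median against it was therefore fixed by the choice of array and says nothing about lung RNA. The same limit holds for single genes set against replicate 1 alone. With Get1 +/+ replicate 1 as the only control, an alternative added after the data were seen, 15 members were higher and 19 lower, their median was -0.0159 and that of the blood endothelial members -0.0264. In that fit the lone control array is assumed to vary like the Get1 -/- arrays. With 1 array left out at a time the median over members ran from 0.0524, without Get1 +/+ replicate 2, to 0.26, without Get1 -/- replicate 2. That of the blood endothelial members ran from 0.0553, without Get1 -/- replicate 3, to 0.26, without Get1 -/- replicate 2. Among arrays with a high actin control the median over members was 0.0694, and among the others 0.14. The part that lung RNA has in these values was not tested.

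**Figure D2:**
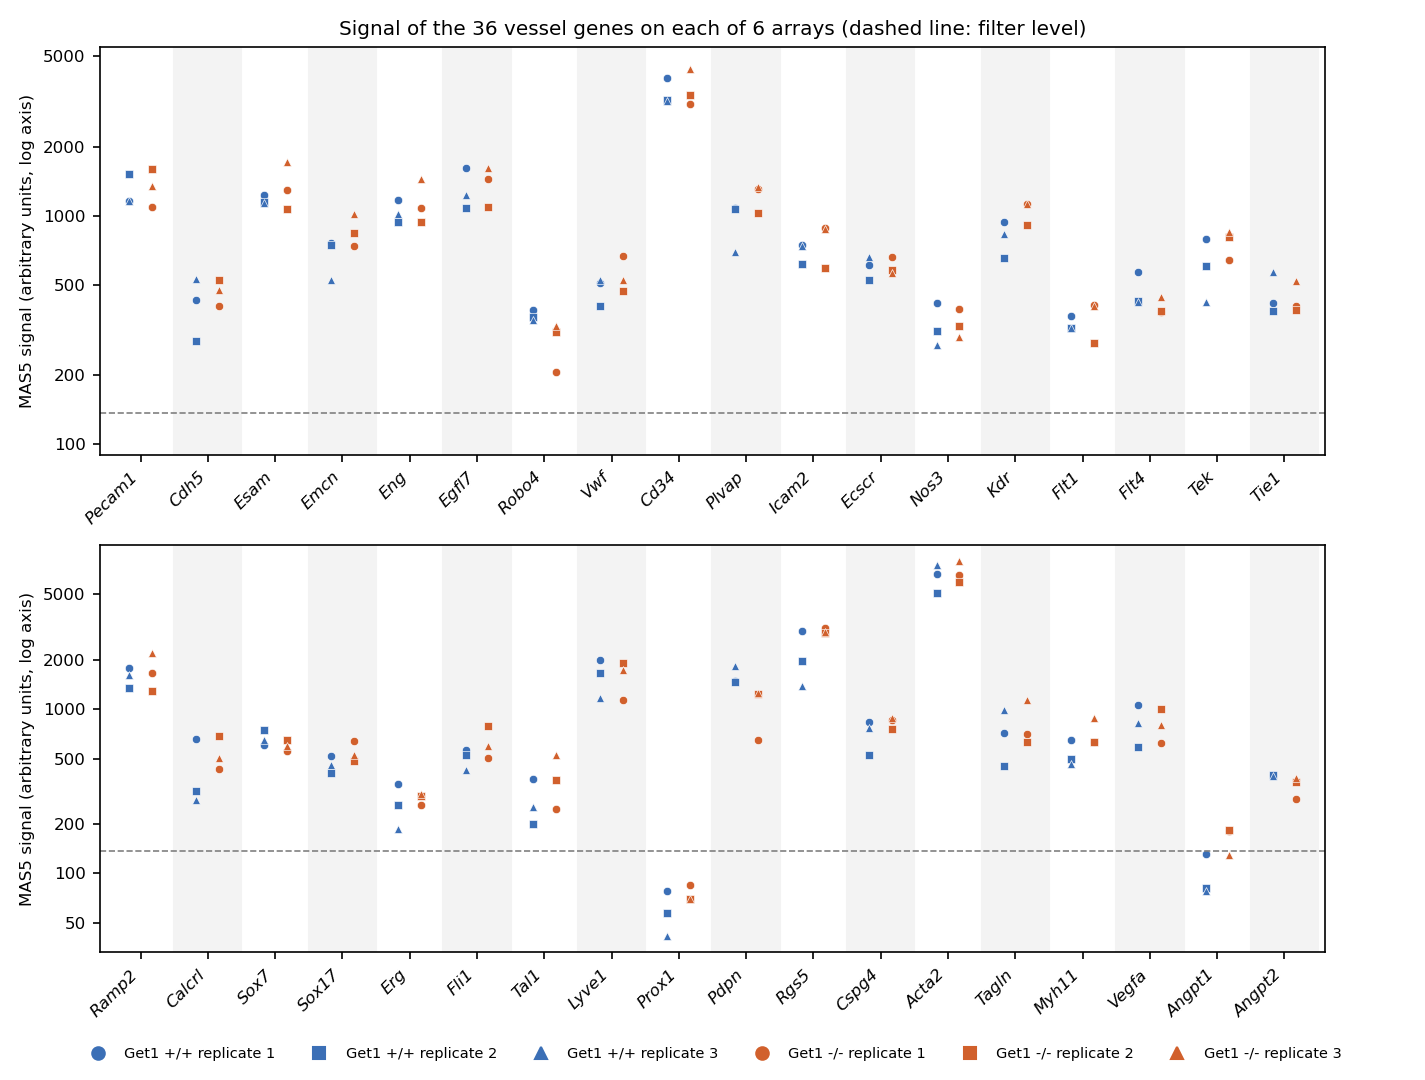
MAS5 signal (log axis) of the 36 vessel genes on each array, blue for Get1 +/+ and orange for Get1 -/-, with a marker shape per replicate and a dashed line at the filter level of 137. Prox1 and Angpt1 lie around or below the filter level, and the genotypes overlap for every other gene except Pdpn, Robo4 and Angpt2, where all Get1 -/- points lie below the Get1 +/+ points.

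None of the ligands passed. Vegfa, the main growth factor of blood endothelium, which epidermis and other tissues secrete, read 1060.2, 588 and 818 in Get1 +/+ and 621, 1001 and 799 in Get1 -/- skin. The highest and the lowest of these values both belong to Get1 +/+ mice, and the log2 difference was -0.0129 ± 0.25 (95% interval -0.58 to 0.55). Its other kept probe set differed by 0.0428 ± 0.21. Angpt2, which antagonises or activates Tek depending on context, read 396, 395 and 390.5 in Get1 +/+ and 283, 359 and 382 in Get1 -/- skin. All 3 Get1 -/- values lay below the Get1 +/+ values, which were within a few units of each other, and the difference was -0.22 ± 0.18 (adjusted p = 0.796), or -0.0872 without Get1 -/- replicate 1. Angpt1, the activating ligand of Tek made by mural cells and fibroblasts, had a mean below the filter and took no part in the main fit. Its signals were 131, 81 and 78.3 in Get1 +/+ and 182, 183 and 129 in Get1 -/- skin, so that 2 of 3 Get1 -/- values lay above every Get1 +/+ value. Fitted without a filter, it differed by 0.79 ± 0.34 (adjusted p = 0.681 over all 18193 genes), and its other probe set, at still lower signal, by 0.11. For comparison, 26 genes known from other organs had mean signals from 8.09 to 1793 with a median of 48.9, and 22 of them lay below the filter. All the Angpt1 signals listed lay above that median but within that range. The means of its other probe set, 36.1 in Get1 +/+ and 42.8 in Get1 -/- skin, lay below the median. The comparison therefore cannot tell whether Angpt1 was above the level of those genes. Mbp, the myelin protein, lay above the filter and differed by 0.43 ± 0.20, or 0.27 without Get1 -/- replicate 3.

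None of the receptors of these ligands passed. Kdr, the main signalling receptor for Vegfa, read 945, 655 and 833 in Get1 +/+ and 1124, 913 and 1124 in Get1 -/- skin. Its Get1 -/- values were at the upper end of the range and 1 of them, 913, lay under the highest Get1 +/+ value of 945. The difference was 0.39 ± 0.18 (95% interval -0.0255 to 0.80, adjusted p = 0.615). It was 0.51 over the arrays on which the actin control was high and 0.28 on the others, 0.24 without Get1 +/+ replicate 2, and 0.15 against Get1 +/+ replicate 1 alone. Flt1, the high-affinity receptor that also acts as a decoy, read 336 ± 25 and 363 ± 72.8 in Get1 +/+ and Get1 -/- skin and differed by 0.0914 ± 0.21. Tek, the angiopoietin receptor, read 789, 605 and 420.4 in Get1 +/+ and 638, 809 and 849.8 in Get1 -/- skin. Its lowest values were those of Get1 +/+ replicates 3 and 2, and the difference of 0.38 ± 0.24 became -0.0546 without them. With 1 array left out it ran from 0.14 (without Get1 +/+ replicate 3) to 0.59 (without Get1 +/+ replicate 1). Tie1, the partner of Tek, read 456 ± 99.98 and 435 ± 70.5 and differed by -0.0581 ± 0.21. This difference was 0.0925 with array weights.

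The adrenomedullin receptor of vessels is made of Calcrl and its partner Ramp2. Calcrl read 657, 317 and 281 in Get1 +/+ and 431, 687 and 507 in Get1 -/- skin. Values of the genotypes interleaved, with Get1 +/+ replicate 1 next to the highest and the other Get1 +/+ arrays lowest, and the difference of 0.45 ± 0.32 (95% interval -0.27 to 1.18) had one of the widest intervals among the members. Against Get1 +/+ replicate 1 alone it was -0.31, and with 1 array left out it ran from 0.22 (without Get1 +/+ replicate 3) to 0.83 (without Get1 +/+ replicate 1). Ramp2 read 1576 ± 222 and 1711 ± 448 and differed by 0.10 ± 0.21. Probe sets that Ramp2 shares with the gene Vps25 differed by -0.15 and -0.33, and a shared probe set cannot be assigned to either gene.

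The largest group holds mainly junction and surface proteins of endothelium, together with Egfl7, Vwf and Nos3. In it 12 of 13 were higher and none passed the threshold. Pecam1, an adhesion molecule of endothelial contacts, read 1162, 1533 and 1162 in Get1 +/+ and 1095, 1601 and 1358 in Get1 -/- skin. The genotypes covered almost the same range, with a difference of 0.0677 ± 0.19 (95% interval -0.36 to 0.50). Cdh5, the cadherin that joins endothelial cells, read 427, 283 and 529 in Get1 +/+ and 402, 522 and 472 in Get1 -/- skin. Both the lowest and the highest Cdh5 value were Get1 +/+, and the difference of 0.21 ± 0.24 was -0.0383 without Get1 +/+ replicate 2. Esam and Icam2, adhesion molecules of the same contacts, differed by 0.19 ± 0.19 and 0.14 ± 0.20. With 1 array left out Esam ran from 0.0137 (without Get1 -/- replicate 3) to 0.35 (without Get1 -/- replicate 2) and Icam2 from 0.0445 (without Get1 -/- replicate 1) to 0.33 (without Get1 -/- replicate 2). Eng, a co-receptor for BMP9 and TGF-beta known from hereditary telangiectasia, differed by 0.13 ± 0.19, and Egfl7, a secreted matrix protein of endothelium, by 0.0843 ± 0.21.

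Plvap and Emcn, markers of capillaries, had the largest positive differences of this group. Plvap, which forms the diaphragms of fenestrae and caveolae, read 1078, 1076 and 693 in Get1 +/+ and 1307, 1028 and 1339 in Get1 -/- skin. Get1 +/+ replicate 3 lay well below the others, and the difference of 0.39 ± 0.21 (adjusted p = 0.655) was 0.18 without it. Emcn, a sialomucin of capillaries and veins, read 763, 743 and 523 in Get1 +/+ and 737, 845 and 1021 in Get1 -/- skin. Get1 +/+ replicate 3 was again the lowest, and the difference of 0.37 ± 0.20 (adjusted p = 0.661) was 0.19 without it and 0.24 without Get1 -/- replicate 3. Cd34, a sialomucin of endothelium and of some fibroblasts and progenitors, had a difference of 0.0505 ± 0.17, Nos3, the endothelial nitric oxide synthase, 0.0256 ± 0.22, and Ecscr, a regulator of endothelial migration, 0.00821 ± 0.17. Vwf, the clotting factor stored in endothelium and platelets, read 478 ± 63.8 and 553 ± 101 and differed by 0.20 ± 0.19, from 0.0616 (without Get1 -/- replicate 1) to 0.31 (without Get1 -/- replicate 2) with 1 array left out.

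Robo4 was the one member of this group with a negative difference. This endothelial Roundabout receptor, which stabilises vessels, read 385, 359.6 and 351 in Get1 +/+ and 207, 311 and 328 in Get1 -/- skin, so that all 3 Get1 -/- values lay below all 3 Get1 +/+ values. The Get1 +/+ values were close to each other and Get1 -/- replicate 1 was far below the other Get1 -/- arrays. The difference was -0.40 ± 0.22 (95% interval -0.89 to 0.0921, adjusted p = 0.658), and -0.19 without that array. It was -0.85 over the arrays on which the actin control was high, where Get1 -/- replicate 1 is the only Get1 -/- array, and -0.14 on the others.

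Among transcription factors of endothelium, 4 of 5 were higher and none passed. Fli1, an ETS factor of endothelium and blood cells, read 562, 522 and 423 in Get1 +/+ and 506, 794 and 596 in Get1 -/- skin. Get1 -/- replicate 2 was highest and the other Get1 -/- values lay in or near the Get1 +/+ range, with a difference of 0.31 ± 0.21 (adjusted p = 0.732), and values from 0.14 (without Get1 -/- replicate 2) to 0.46 (without Get1 -/- replicate 1) over the single arrays left out. Erg, the ETS factor closest to Fli1, differed by 0.15 ± 0.25, and by -0.0786 without Get1 +/+ replicate 3. Tal1, a helix-loop-helix factor of endothelium and blood progenitors, read 378, 200.0 and 252 in Get1 +/+ and 245, 371 and 526 in Get1 -/- skin. Its values overlapped widely and gave 0.44 ± 0.32 (95% interval -0.28 to 1.17), or -0.0579 against Get1 +/+ replicate 1 alone. Leaving out 1 array gave Tal1 values from 0.18 (without Get1 -/- replicate 3) to 0.73 (without Get1 -/- replicate 1). The SoxF factors went apart in sign. Sox17, known from arteries, differed by 0.25 ± 0.18, and by 0.0677 ± 0.22 on its other kept probe set. Sox7 differed by -0.14 ± 0.16. Neither passed, and with 1 array left out Sox17 ran from 0.13 (without Get1 -/- replicate 1) to 0.34 (without Get1 +/+ replicate 1) and Sox7 from -0.21 (without Get1 +/+ replicate 1) to -0.0588 (without Get1 +/+ replicate 2).

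Lymphatic genes above the filter had differences near 0 or below it and none passed. Flt4, the Vegfc receptor of lymphatic endothelium, read 566, 423 and 419 in Get1 +/+ and 381, 384 and 442 in Get1 -/- skin. Get1 +/+ replicate 1 was highest and the other 5 values lay close together, with a difference of -0.21 ± 0.19 (adjusted p = 0.805), or -0.0686 without Get1 +/+ replicate 1. Its other kept probe set differed by -0.41 ± 0.28. Lyve1, a hyaluronan receptor of lymphatic endothelium and of some tissue macrophages, read 1986, 1649 and 1167 in Get1 +/+ and 1131, 1923 and 1738 in Get1 -/- skin. High and low values were found in both genotypes, and the difference was -0.00526 ± 0.25 (95% interval -0.57 to 0.56). Its other kept probe set differed by -0.20 ± 0.18. Prox1, the factor that specifies lymphatic endothelium, lay below the filter at 78.6, 57.4 and 41.7 in Get1 +/+ and 84.4, 69.8 and 69.8 in Get1 -/- skin, and without a filter differed by 0.38 ± 0.41 (adjusted p = 0.876). All of these values lay under the filter.

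Pdpn had the largest negative difference among the members. It encodes podoplanin, a mucin of lymphatic endothelium that is also known from fibroblasts and from basal keratinocytes in hair follicles and wounds, so its signal in whole skin need not be lymphatic. Its single probe set read 1481, 1473 and 1819.5 in Get1 +/+ and 646, 1243 and 1256 in Get1 -/- skin. All 3 Get1 -/- values lay below all 3 Get1 +/+ values, Get1 -/- replicate 1 by far the most. The difference was -0.66 ± 0.26 (95% interval -1.24 to -0.0823, unadjusted p = 0.0293, adjusted p = 0.586 by limma). Without Get1 -/- replicate 1 it was -0.34, and against Get1 +/+ replicate 1 alone -0.56. It was -1.19 over the arrays on which the actin control was high, where Get1 -/- replicate 1 is the only Get1 -/- array, and -0.54 on the others. Beside it, 13 of 14 keratinocyte genes were lower in Get1 -/- skin, with a median difference of -0.12 and a summed signal from 179397 to 193229 in Get1 +/+ and from 166999 to 172477 in Get1 -/- skin. Krt15, a keratin of basal and bulge cells, and Col17a1, of the hemidesmosome, differed by -0.29 ± 0.13 and -0.29 ± 0.15. The part of keratinocytes in the Pdpn value was not tested.

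Mural and smooth muscle members were all higher on the probe set used for each gene, 5 of 5. Their median log2 difference was 0.26 and none passed the threshold. Rgs5, a regulator of G-protein signalling that marks pericytes, read 2992, 1968 and 1384 in Get1 +/+ and 3139, 2910.2 and 2934 in Get1 -/- skin. The Get1 -/- values lay within a narrow range and those of Get1 +/+ spread over more than a 2-fold range, with Get1 +/+ replicate 1 inside the Get1 -/- range. The difference was 0.57 ± 0.25 (95% interval 0.0188 to 1.13, unadjusted p = 0.0441, adjusted p = 0.602 by limma). It was 0.30 without Get1 +/+ replicate 3, 0.86 without Get1 +/+ replicate 1 and 0.000412 against Get1 +/+ replicate 1 alone. It was 0.37 over the arrays on which the actin control was high and 1.08 on the others, where Get1 +/+ replicate 3 is the only Get1 +/+ array.

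Contractile genes of smooth muscle had smaller differences than Rgs5, without a test of the gap. Myh11, the smooth muscle myosin heavy chain, read 650.4, 499.7 and 461 in Get1 +/+ and 632, 631 and 878 in Get1 -/- skin. Get1 -/- replicate 3 was highest and the other Get1 -/- values lay just under Get1 +/+ replicate 1, with a difference of 0.41 ± 0.20 (adjusted p = 0.634), or 0.25 without Get1 -/- replicate 3. Acta2, smooth muscle actin, read 6669, 5122 and 7506 in Get1 +/+ and 6519.8, 5951 and 7976 in Get1 -/- skin, and Tagln, the actin-binding protein transgelin, 712, 451 and 988 in Get1 +/+ and 704, 629 and 1133 in Get1 -/- skin. On both probe sets Get1 +/+ replicate 2 was lowest and Get1 -/- replicate 3 highest, with Get1 +/+ replicate 3 second. Their differences were 0.0904 ± 0.17 and 0.22 ± 0.31, and without Get1 +/+ replicate 2 they were -0.0649 and -0.0772. Cspg4, the NG2 proteoglycan of pericytes, read 710.3 ± 162 and 833 ± 63.6 and differed by 0.26 ± 0.20, with values from 0.0532 (without Get1 +/+ replicate 2) to 0.38 (without Get1 +/+ replicate 1) over the arrays left out. With 1 array left out the median of the mural members ran from 0.0532, without Get1 +/+ replicate 2, to 0.39, without Get1 -/- replicate 2, and it was 0.0203 against Get1 +/+ replicate 1 alone.

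Several members had more than 1 probe set above the filter, which allows a second reading of the same transcript. Of 64 probe sets that name a member alone 49 were kept, 0 of them passed over all 22519 kept probe sets (background 0.0266%), and 2 had an unadjusted p under 0.05 (background 6.72%). Of 10 members with several, 5 had all of them on one side of 0. The brightest and the other kept probe set lay on opposite sides of 0 for Cspg4 (0.26 and -0.0510 ± 0.23) and Eng (0.13 and -0.0484 ± 0.20). The same held for Vegfa (-0.0129 and 0.0428 ± 0.21). Rgs5 had 4 kept probe sets. The second read 649, 726 and 499 in Get1 +/+ and 772, 1127 and 758 in Get1 -/- skin, with all Get1 -/- values above the Get1 +/+ values and a difference of 0.50 ± 0.22. The remaining ones differed by 0.50 ± 0.46 and -0.0685 ± 0.24, so the probe sets of Rgs5 did not all go together. Flt1 had 3, of which one read 297, 181 and 221 in Get1 +/+ and 616, 267 and 227 in Get1 -/- skin. There a single array, Get1 -/- replicate 1, lay far above the others beside a difference of 0.55 ± 0.38. Fli1 differed by 0.31 ± 0.22 and 0.26 ± 0.22 on its probe sets. Of the 4 of Egfl7 the differences ran from -0.11 to 0.21, on both sides of 0.

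**Figure D3:**
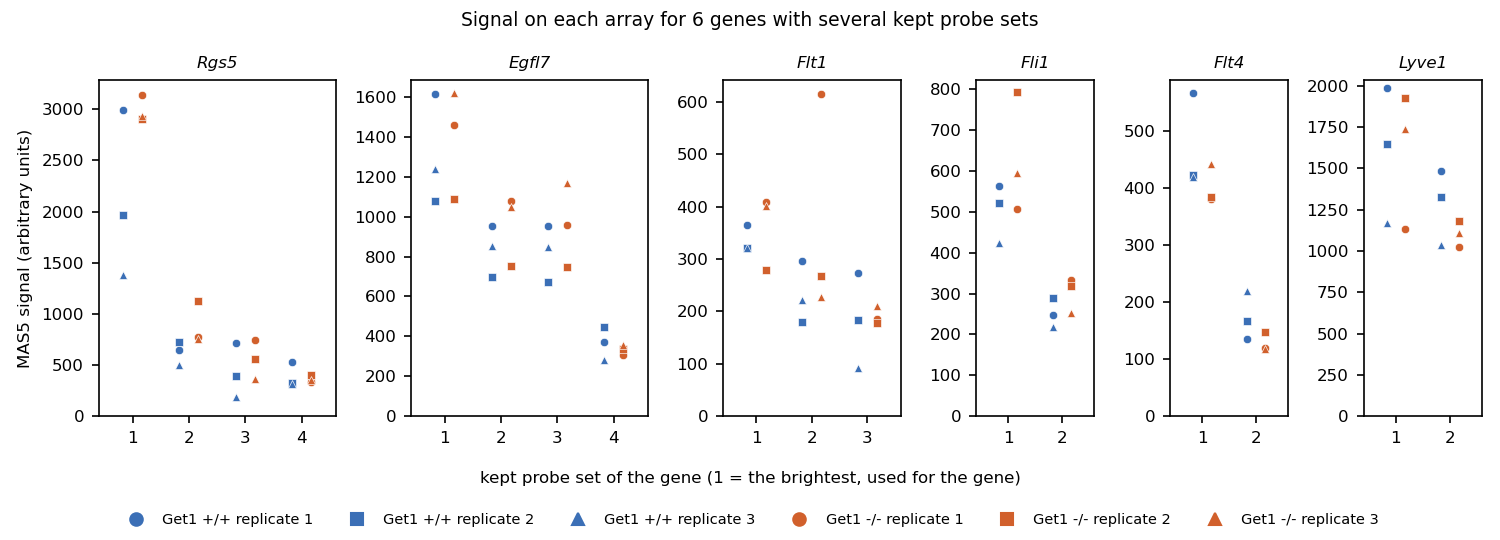
MAS5 signal of each kept probe set of 6 genes on each array, on a linear axis from 0, blue for Get1 +/+ and orange for Get1 -/-, the probe set used for the gene first. The second Rgs5 probe set separates the genotypes and its last does not, and 1 array stands alone on the second Flt1 probe set.

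Vessel genes were high or low together on single arrays. On Get1 -/- replicate 3, 30 of 34 members lay above their own mean over the 6 arrays, as did 57.5% of all genes, and 14 members were highest there. On Get1 +/+ replicate 1 the count was 27, against 50.2% of all genes. Get1 +/+ replicate 2 was at the other end, with 7 members above their mean (43.5% of all genes). On Get1 +/+ replicate 3, Get1 -/- replicate 1 and Get1 -/- replicate 2 it was 13, 14 and 14, against 58.5%, 50% and 47% of all genes. Get1 +/+ replicate 1 and Get1 -/- replicate 3, on which the most members lay above their mean, are 1 mouse of each genotype. For the blood endothelial members the mean log2 deviation was 0.12, -0.18 and -0.16 on the Get1 +/+ arrays and 0.00202, 0.00642 and 0.21 on the Get1 -/- arrays. For the mural members it was 0.10, -0.44 and -0.12, and 0.10, -0.0151 and 0.38.

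**Figure D4:**
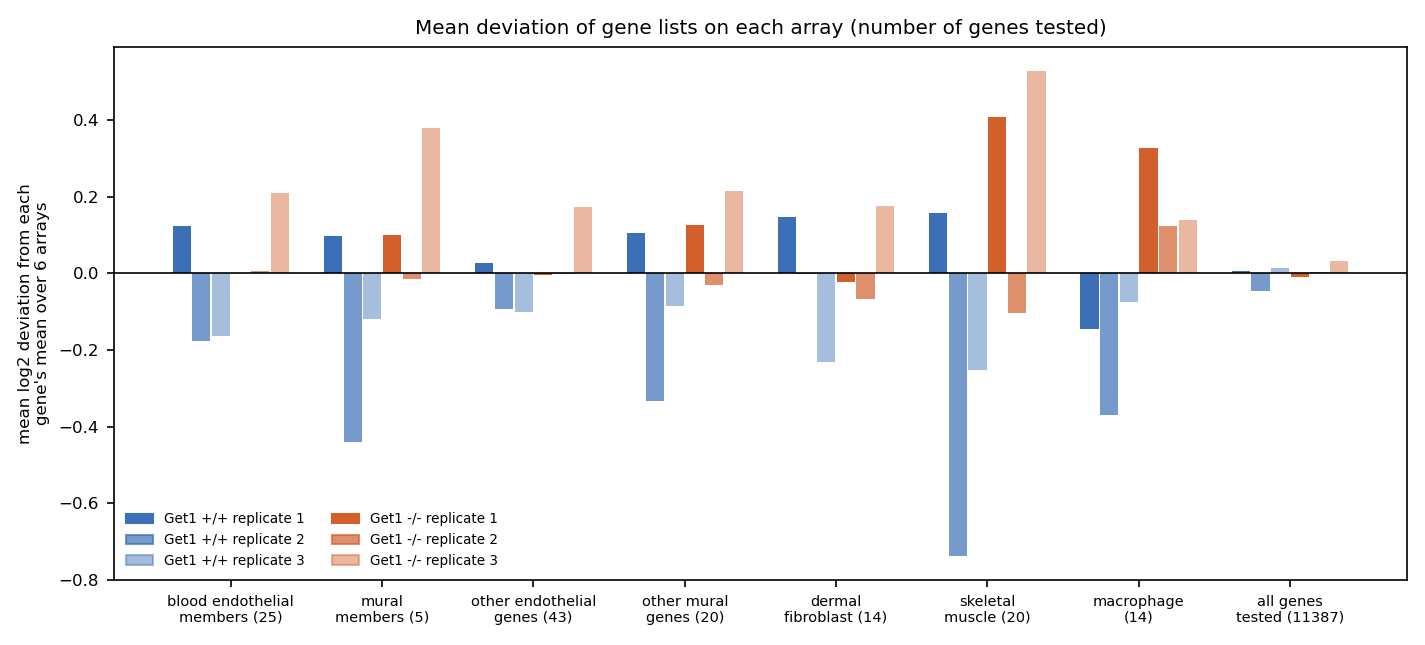
Mean log2 deviation of each list of genes from each gene's mean over the 6 arrays, 1 bar per array, blue for Get1 +/+ and orange for Get1 -/- with lighter shades for replicates 2 and 3. For endothelial, mural and skeletal muscle lists Get1 -/- replicate 3 is the highest bar, and the lowest bar belongs to Get1 +/+ replicate 2 except for the other endothelial genes, where Get1 +/+ replicate 3 is slightly lower.

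Skeletal muscle genes had the same highest and lowest array. Of this list 20 of 20 were higher in Get1 -/- skin, with a median difference of 0.45, and their mean deviation was lowest on Get1 +/+ replicate 2 (-0.74) and highest on Get1 -/- replicate 3 (0.53). Their summed signal ran from 150676 to 233819.7 in Get1 +/+ and from 184409 to 269374 in Get1 -/- skin. Myh7, the slow myosin heavy chain, differed by 1.35 ± 0.32 (adjusted p = 0.38) and Tnnc1, slow troponin C, by 1.00 ± 0.25 (adjusted p = 0.431), and Des and Tpm2 stand in this list and in that of other mural genes. Dermal fibroblast genes were highest on the same arrays as the endothelial members, Get1 -/- replicate 3 (0.18) and Get1 +/+ replicate 1 (0.15), with a median difference of 0.0211 and a summed signal from 172676 to 215555 in Get1 +/+ and from 184271 to 214797 in Get1 -/- skin. Crabp1 and Postn, a retinoic acid binding protein and a matrix protein of dermis, differed by 0.46 ± 0.19 and 0.46 ± 0.22. Crabp1 was 0.29 without Get1 -/- replicate 3, and Postn 0.17 without Get1 +/+ replicate 3 and 0.0799 against Get1 +/+ replicate 1 alone. Macrophages include cells that carry Lyve1, and 12 of 14 macrophage genes were higher with a median of 0.45, and their sums, from 16868 to 19762 in Get1 +/+ and from 22901 to 25418 in Get1 -/- skin, did not overlap. Ptprc, the CD45 antigen of all leukocytes, differed by 0.99 ± 0.21 (adjusted p = 0.3), or 1.21 without Get1 +/+ replicate 1, and C1qa, a complement subunit, by 0.64 ± 0.19. Adipocyte genes were higher in 8 of 9 with a median of 0.16, Lpl, the lipase bound to capillary walls, at 0.48 ± 0.17 (0.31 without Get1 +/+ replicate 3) and Car3 at 0.21 ± 0.15 (from 0.0931 without Get1 +/+ replicate 1 to 0.35 without Get1 +/+ replicate 2). None of these genes passed over all genes. Of 15 erythroid genes 3 lay above the filter, 8 lay below it and 4 had no probe set naming them alone. Of 12 platelet genes 5 lay above it, 5 below, and 2 had no such probe set. Median differences of the erythroid and platelet genes tested were -0.0220 and 0.0605. Slc4a1 and Alas2, the anion exchanger and the haem enzyme of red cells, differed by 0.35 ± 0.31 and -0.0474 ± 0.29, and the platelet receptor subunits Itgb3 and Gp1bb by 0.54 ± 0.27 and -0.49 ± 0.26. Without Get1 -/- replicate 3, Slc4a1 was at 0.0354 and Itgb3 at 0.31. The part of each of these tissues in the vessel values was not tested.

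Further genes, of the vessel wall, vascular signalling and the hypoxia response, came from lists that do not hold the 36. They are called other vessel genes below. Of 144 listed, 125 were tested with 0 passing over all genes (smallest adjusted p = 0.497, limma). At an unadjusted p under 0.05, 9 were higher and 1 lower, where all genes gave 3.89% higher and 4.29% lower. Both directions together made 8%, against 8.18% of all genes. Most of the genes under this threshold, Hif1a and Angptl4 among them, were in the higher direction. Among 43 other endothelial genes 32 were higher, with a median of 0.12. Ptprb, the endothelial phosphatase that restrains Tek, read 811, 629 and 436 in Get1 +/+ and 929, 1006 and 955 in Get1 -/- skin, all Get1 -/- values above the Get1 +/+ values, and differed by 0.67 ± 0.22 (adjusted p = 0.567). Its difference was 0.43 without Get1 +/+ replicate 3 and 0.25 against Get1 +/+ replicate 1 alone. Cyyr1, a membrane protein, differed by 0.54 ± 0.24. Among 20 other mural genes 16 were higher, with a median of 0.22. Gucy1a1, a subunit of the nitric oxide receptor of mural cells, read 697, 441 and 604 in Get1 +/+ and 904, 1005 and 807 in Get1 -/- skin and differed by 0.66 ± 0.20 (adjusted p = 0.529), without overlap of the genotypes. Tbx18, a transcription factor of mural cells and dermal papilla, differed by 0.57 ± 0.22.

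Signalling genes of vessels had no shift in common. Of 27 genes of VEGF, angiopoietin, Notch, apelin and ALK1 signalling 13 were higher and 14 lower, with a median of -0.0111. Angptl4, a secreted inhibitor of lipoprotein lipase that is also called angiopoietin-like, read 541, 374 and 433 in Get1 +/+ and 696, 644 and 748 in Get1 -/- skin, without overlap, and differed by 0.64 ± 0.18 (adjusted p = 0.497). Aplnr, the apelin receptor, differed by 0.39 ± 0.17. Other lymphatic genes had a median of 0.000794 over 11 genes, with Mmrn1, a secreted protein of lymphatic endothelium, at 0.31 ± 0.28. Leaving out 1 array gave Mmrn1 values from 0.0273 (without Get1 +/+ replicate 3) to 0.63 (without Get1 +/+ replicate 1), and it was -0.33 against Get1 +/+ replicate 1 alone. Foxc1, a forkhead factor of vessels and also of hair follicle stem cells, read 233, 375 and 387 in Get1 +/+ and 151, 214 and 187 in Get1 -/- skin, all Get1 -/- values below the Get1 +/+ values, and differed by -0.83 ± 0.26 (adjusted p = 0.555). Vascular basement membrane genes had a median of -0.0255 over 11 genes, with Lama4, the laminin chain of capillaries, at 0.25 ± 0.14 and nidogen Nid1 at 0.21 ± 0.16. Over the single arrays left out Lama4 ran from 0.15 (without Get1 -/- replicate 3) to 0.33 (without Get1 -/- replicate 2) and Nid1 from 0.11 (without Get1 -/- replicate 3) to 0.36 (without Get1 -/- replicate 1). Hypoxia response genes, among them Hif1a, had a median of 0.0264, with 12 of 17 higher. Hif1a, the oxygen-regulated factor that drives Vegfa, read 5182, 4022 and 3219.8 in Get1 +/+ and 5553, 5799.9 and 5519.6 in Get1 -/- skin, without overlap, and differed by 0.47 ± 0.17 (adjusted p = 0.58), or 0.30 without Get1 +/+ replicate 3 and 0.12 against Get1 +/+ replicate 1 alone. Its target Slc2a1, a glucose transporter, differed by 0.30 ± 0.19, from 0.16 (without Get1 +/+ replicate 1) to 0.52 (without Get1 +/+ replicate 3) with 1 array left out, and Vegfa itself by -0.0129 ± 0.25.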

How the data were processed

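Total RNA of 6 back skin samples was measured on Affymetrix arrays after oligo(dT)-primed, biotin-labelled cRNA synthesis, per the labels' protocols. The deposited values are linear signal intensities made by the authors with MAS5, per the submitters' processing notes (version and genome build are not given in the sources used here). Their 2% trimmed mean was 500 on every array, so no scaling was added. No detection calls were used. The number of arrays limits precision, and each array is 1 mouse.

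Control probe sets (64) were left out and signals turned into log2. Of 45037 probe sets, 34945 name 1 gene in the platform annotation, 932 several and 9160 none. All 36 member symbols are in the RefSeq table of GRCm38.p6. Probe sets whose mean log2 lay at or above the median (signal 137) were kept, 22519 in all, and the brightest per gene gave 11387 genes. The test was two-sided, with lmFit and eBayes of limma 3.58.1 (R 4.3.3), a trend of variance with mean, Benjamini-Hochberg adjustment over all genes or kept probe sets and a threshold of 0.05, and was tested on simulated data. All members are named, with Grhl3 and the 2 genes of smallest p in each further list, and the lung genes, chosen after they were seen, are named in addition. Members and lists were chosen with earlier results of these data known. The fit was repeated without a filter or trend, with a stricter filter (percentile 70), an added offset of 37.6 in signal, median centring, quantile normalization, array weights, a replicate block, the mean of probe sets, and each array left out.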

Additional observations from a re-analysis of the deposited data

How the results depend on the processing

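In 15 other settings, and with Get1 +/+ replicates 2 and 3 left out, 0 members and 0 other vessel genes passed in limma, nor did any kept probe set of a member in the 14 of these settings run for probe sets and with those arrays left out. The smallest adjusted p of a member over these was 0.0643, for Rgs5 without Get1 +/+ replicate 1. The count over all genes was 5, and was 10 with median centring, 8 with array weights, 44 with the replicate block, 3 without Get1 +/+ replicates 2 and 3, and 3 to 122 with 1 array left out, the highest without Get1 +/+ replicate 1. Same-numbered mice correlated in their deviations at -0.0195, 0.361 and -0.0251 over genes tested and at 0.133, 0.26 and 0.14 over kept probe sets, so the numbers were not taken as pairs in the gene table. The replicate block leaves each log2 difference as it is and changed no call among members. Tnnc1 passed with it (adjusted p = 0.0474), and Ptprc and Myh7 passed without Get1 +/+ replicate 1 (0.0314 and 0.0467). With array weights the median of the mural members was 0.53. Without Get1 +/+ replicates 2 and 3 that of the blood endothelial members was -0.0264.

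The sign held in all 15 settings for 15 of 34 members, and for another 4 (Robo4, Flt4, Tal1 and Angpt2) in every setting but the stricter filter, which they did not pass. It turned with array weights for Pecam1 (-0.00808), Nos3 (-0.0187), Tie1 (0.0925), Vegfa (0.0764) and Alas2 (0.21), with quantile normalization for Ecscr (-0.000688), and with the mean of probe sets for Vegfa (0.0150) and Lama4 (-0.0622). Without Get1 +/+ replicates 2 and 3 it turned for Eng (-0.0504), Egfl7 (-0.24), Cd34 (-0.17), Ecscr (-0.0264), Nos3 (-0.32), Flt1 (-0.0299), Tek (-0.0546), Tie1 (0.0517), Ramp2 (-0.0900), Calcrl (-0.31), Erg (-0.30), Tal1 (-0.0579), Cspg4 (-0.00456), Mmrn1 (-0.33), Slc4a1 (-0.0364) and Sftpc (1.30). With 1 array left out, log2 differences that changed sign ran from -0.0632 to 0.21 for Pecam1, -0.0383 to 0.41 for Cdh5, -0.0463 to 0.26 for Eng, -0.0450 to 0.25 for Egfl7, -0.10 to 0.16 for Cd34, -0.0842 to 0.0833 for Ecscr, -0.11 to 0.20 for Nos3, -0.00449 to 0.27 for Flt1, -0.19 to 0.11 for Tie1, -0.10 to 0.28 for Ramp2, -0.0786 to 0.38 for Erg, -0.22 to 0.23 for Lyve1, -0.0649 to 0.21 for Acta2, -0.0772 to 0.49 for Tagln, -0.23 to 0.19 for Vegfa and -0.35 to 0.26 for Alas2. The cause was not tested.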

Other observations

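Further lung epithelial genes were also highest on Get1 +/+ replicates 2 and 3, though the order of the remaining arrays differed between genes. The surfactant protein genes Sftpb and Sftpa1 read 53.8, 441 and 401 in Get1 +/+ and 165, 14.9 and 59.3 in Get1 -/- skin, and 17.8, 242 and 184 in Get1 +/+ and 16.4, 48.2 and 34.9 in Get1 -/- skin. Slc34a2, a phosphate transporter of alveolar cells, read 487, 1096 and 1219 in Get1 +/+ and 265, 654 and 341 in Get1 -/- skin, and Ager, a receptor of flat alveolar cells, 110.0, 250.0 and 365 in Get1 +/+ and 107, 13.1 and 180.0 in Get1 -/- skin. Sftpd, Cldn18 and Napsa did not have their highest values on those arrays together. Sftpc is also above the level of most arrays on Get1 -/- replicate 1, at 854, where Scgb1a1 is not.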
